A study of Mus musculus with 25 samples.

Results

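The 31 genes described here encode enzymes that carry glucose carbon through glycolysis, the pyruvate dehydrogenase complex and the tricarboxylic acid (TCA) cycle, measured by bulk RNA sequencing in brain hemispheres of mice of 5 ages. They were taken as a list of symbols (Hk1 to Mdh1), each matched by its Ensembl identifier to a row of the deposited count table. All 31 of 31 had a row among the 47729 genes of the table, and all 31 passed the filter on low counts that left 17799 genes for testing. The list holds 7 genes for the steps from glucose to triose phosphates, 6 from triose phosphates to pyruvate, 2 lactate dehydrogenase subunits, 4 subunits of the pyruvate dehydrogenase complex, 11 genes of the TCA cycle and Mdh1, the cytosolic malate dehydrogenase.

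Total RNA came from the hemispheres of male C57BL/6 mice aged 2, 9, 15, 24 and 30 months, with 5 libraries at each age and 25 in all, made with the TruSeq RNA kit. No treatment or altered genotype is given for any of the groups. Each title carries its own number and nothing further says how animals relate to libraries, so the p-values measure the spread between these libraries, which may be in part technical. In such whole-tissue samples fewer cells of a type and less RNA per cell cannot be told apart.

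Glycolysis splits glucose into pyruvate in the cytosol, and lactate dehydrogenase interconverts pyruvate and lactate. The pyruvate dehydrogenase complex, in the mitochondrial matrix, turns pyruvate into acetyl-CoA, which citrate synthase feeds into the TCA cycle, whose NADH and FADH2 supply the respiratory chain. Neurons depend on this oxidation for most of their ATP, while astrocytes and oligodendrocytes are known to run glycolysis at a high rate and to pass on lactate.

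The libraries held 17800113 to 31261121 counts. All 10 neuronal markers were detected, and their summed level had a median of 9454, 9911, 9819, 9397 and 7705 CPM (each library's counts brought to a common total of 1000000, with TMM factors) from 2 to 30 months. At 30 months this sum ranged from 7229 to 9501 CPM across libraries, and it was not corrected for GC content. In 4 of the 5 libraries of 30 months, GC-rich genes were high against GC-poor genes by 1.09 to 2.00 on the log2 scale, relative to the mean of the younger libraries. Replicate 1 of 30 months, at 0.13, lay within the -0.25 to 0.14 of the 20 younger libraries. At 15 months the same measure was -0.25 to -0.085, below all other younger libraries (-0.067 to 0.14). Results at 30 months are therefore given as deposited, after a correction for GC content, and with replicate 1 as the only library of that age. The younger ages were compared in a fit of their 20 libraries. When all 25 libraries shared 1 fit, no comparison of younger ages called more than 2 members.

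Short stretches of the transcripts show 2 features of the members that bear on these measurements. The first is GC content, shown by 90 coding bases of 4 members, with each G and C in capitals, chosen as the coding window closest in composition to the whole transcript (GRCm38, GENCODE M21). Dld and Sucla2 have GC contents of 40.6% and 43.2% over their longest transcripts, the lowest of the 31, and Aldoa and Pkm have 56.9% and 57.7%.
Dld: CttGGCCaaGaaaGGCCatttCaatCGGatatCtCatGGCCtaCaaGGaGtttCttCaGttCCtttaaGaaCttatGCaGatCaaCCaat
Sucla2: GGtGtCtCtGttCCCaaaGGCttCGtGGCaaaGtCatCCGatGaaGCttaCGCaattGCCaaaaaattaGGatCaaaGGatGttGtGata
Aldoa: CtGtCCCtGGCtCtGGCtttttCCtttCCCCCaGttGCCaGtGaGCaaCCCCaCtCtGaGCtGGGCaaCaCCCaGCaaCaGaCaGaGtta
Pkm: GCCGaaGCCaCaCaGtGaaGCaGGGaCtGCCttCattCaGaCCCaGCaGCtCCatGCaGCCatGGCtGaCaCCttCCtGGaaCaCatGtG
Dld (E3 of the 2-oxoacid dehydrogenases) lies at chr12:31331277-31351453, minus strand, Sucla2 (a succinyl-CoA ligase subunit) at chr14:73525319-73596142, plus strand, Aldoa (aldolase A) at chr7:126795234-126800751, minus strand and Pkm (pyruvate kinase M) at chr9:59656368-59679375, plus strand. By the longest transcript of any type, the 15 glycolytic and lactate dehydrogenase genes spanned 48.0% to 57.7% GC with a median of 53.5%. The 16 others spanned 40.6% to 52.5% with a median of 47.0%. In the longest protein-coding transcript GC was higher for some members, such as Mdh2 (55.4%, against 50.9%), Idh3b (52.1%, against 47.2%) and Gapdh (56.6%, against 52.6%).

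The second feature is sequence shared with processed gene copies. A 50-base window of the Gapdh coding sequence (coding bases 415 to 464) occurs letter for letter in transcripts of 84 other annotated genes, with no base in capitals since every position is shared.
Gapdh: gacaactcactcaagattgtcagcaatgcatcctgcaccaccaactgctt
Of all 50-base windows of the Gapdh transcript, 82.5% occurred in other annotated genes, 213 of which are pseudogenes. The rows of all other genes with any shared window held 2844 counts per library in sum, against 1148 for Gapdh itself (means of 25 libraries). These genes include 6 protein-coding ones, and a gene entered the sum however few windows it shared. The closest pseudogenes, with 65.9% to 82.5% of the windows, held only 1.4 to 4.6 counts each. The sum therefore cannot be read as reads of Gapdh counted in its copies. By share of windows found in other genes, Eno1 (72.2%) and Pgk1 (68.0%) were also above 50%. Another 8 members lay between 10% and 50%: Pgam1 (41.5%), Pkm (30.5%), Pdhb (30.3%), Ldhb (27.0%), Suclg2 (21.8%), Gpi1 (19.6%), Ldha (16.6%) and Aldoa (13.5%). The other 20 members were under 10%. How reads that fit several places were counted is not given in the sources used here, so the counts of these 11 members are uncertain. Overlapping neighbours add to this for Pfkp, which shares 17.1% of its windows with Pitrm1, and for Pdha1, which shares 16.5% with Map3k15.

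Levels per length ranged from 2.07 to 371 RPKM, computed here from the counts over the 20 libraries of 2 to 24 months. RPKM is CPM divided by the length in kilobases of all annotated exons of a gene. Ranks between genes depend on this length, which can exceed that of any single transcript. Aldoa was highest at 371 ± 18.3 (SD over 20 libraries). Mdh1, which with Mdh2 moves reducing equivalents between cytosol and mitochondria, followed at 309 ± 8.20, and the neuronal enolase Eno2 at 212 ± 6.51. These 3 means stand apart by more than their SDs. Ldhb (194 ± 6.37), Pkm (149 ± 5.04), Tpi1 (138 ± 6.48) and Pfkm (122 ± 4.02) came next. The remaining glycolytic genes with few copies were Hk1 (51.2 ± 1.25), Pfkp (25.4 ± 0.71) and Pfkl (22.7 ± 1.01). Those with 10% or more shared windows were Gpi1 (65.0 ± 2.05), Ldha (53.2 ± 2.46), Eno1 (25.0 ± 1.39), Gapdh (11.1 ± 0.88), Pgk1 (8.44 ± 0.51) and Pgam1 (6.54 ± 0.65). Gapdh, Pgk1 and Pgam1, which act in succession in the pathway between Tpi1 and Eno2, were thus measured at levels far below those neighbours, and the part of their shared windows in this was not tested.

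Among mitochondrial members, Ogdh (69.5 ± 2.14 RPKM), Mdh2 (68.8 ± 2.83) and Idh3b (64.5 ± 2.24) were highest. Ogdh and Mdh2 differed by less than their SDs. Pdha1 (56.1 ± 1.53) and Cs (55.9 ± 1.15), the citrate synthase gene, differed by less than their SDs. Idh3a (49.1 ± 1.16), Idh3g (45.7 ± 1.56), Sucla2 (42.1 ± 1.37) and Dld (36.3 ± 1.12) formed a middle group. Dlat (23.6 ± 0.98), Fh1 (23.6 ± 0.85), Suclg1 (18.8 ± 0.56), Pdhb (18.7 ± 0.79) and Dlst (16.4 ± 0.56) were lower, and Suclg2 (2.07 ± 0.19), the GTP-forming partner of Suclg1, was lowest of all 31.

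**Figure D1:**
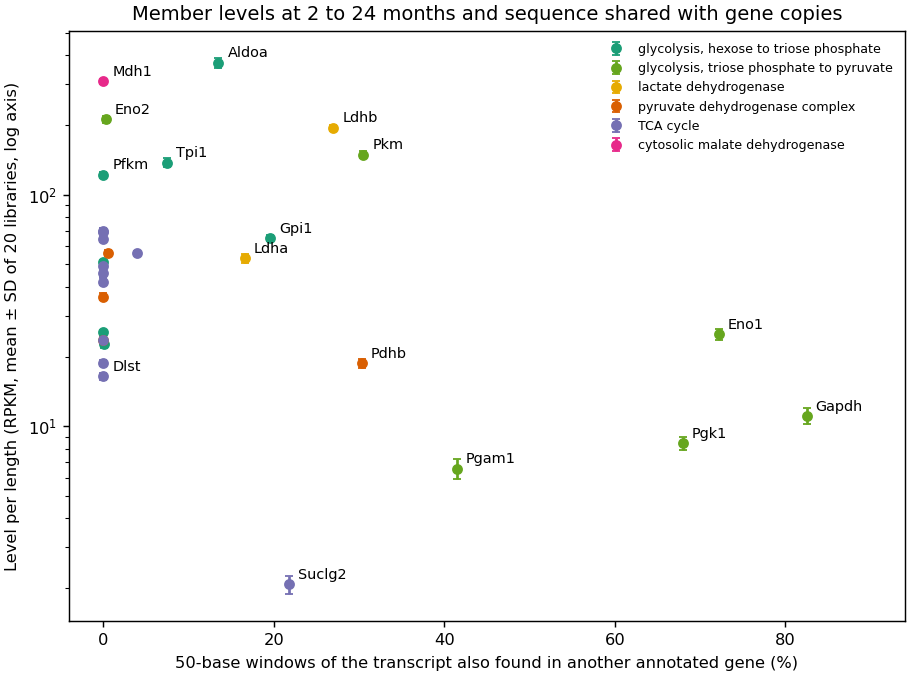
Level per length of each member (RPKM, mean ± SD over 20 libraries of 2 to 24 months, log axis) against the percentage of 50-base windows of its transcript found in another annotated gene, coloured by role. Gapdh, Pgk1 and Pgam1 sit low with 41.5% to 82.5% shared windows, while Aldoa is highest at 371.

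Isozyme shares, set per length and without a test, moved by a few percentage points at most between 2 and 24 months. By the length of all annotated exons, Pfkm, the phosphofructokinase isoform known from muscle, gave 72.2% ± 0.3 (SD, n = 5) of phosphofructokinase at 2 months. At 24 months it gave 72.0% ± 0.6, and Pfkl and Pfkp shared the rest about evenly. These lengths were 3340 bases for Pfkm, 6675 for Pfkl and 13401 for Pfkp. The longest protein-coding transcripts have 2879, 3730 and 4145 bases. The size of each share thus depends on the length used, and shares by transcript length were not computed. Eno2 made up 89.3% ± 0.2 of enolase at 2 months and 89.1% ± 0.4 at 24 months. Ldha, the subunit that favours lactate formation, went in share from 22.4% ± 0.15 at 2 months to 20.8% ± 0.58 at 24 months, with the libraries of these ages apart (22.2% to 22.6% and 20.05% to 21.4%). Sucla2, the ATP-forming subunit, made up 95.6% ± 0.3 of the 2 alternative succinyl-CoA ligase beta subunits at 2 months and 94.8% ± 0.4 at 24 months. At 30 months its share was 84.9% to 95.2% across libraries.

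Between 2 and 24 months every member stayed within a narrow range. The highest of the 4 age means exceeded the lowest by a factor of 1.03 to 1.22, with a median of 1.07 over the 31 members, against a median of 1.11 over the 10169 tested genes at or above the lowest member level. Replicates were close. The coefficient of variation within an age had a median of 2.32% over members and 4.38% over those 10169 genes. That set, called genes at member level below, has only a lower limit of 9.58 CPM. The median member was at 210 CPM, so the set is not matched to the members in level, and a comparison with matched genes was not made.

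At 9 months compared with 2 months, Gpi1, Gapdh and Pfkp were higher by 5% to 12%, and no member passed the test as lower. Gpi1 encodes glucose-6-phosphate isomerase, the step after hexokinase. Pfkp encodes the platelet form of phosphofructokinase, and Gapdh the dehydrogenase that makes the first NADH of glycolysis. In edgeR's quasi-likelihood test with Benjamini-Hochberg adjustment, 3 members were higher and 0 lower, beside 14.5% of all tested genes in either direction (7.76% higher, 6.79% lower). The members called were 9.68% of the 31, against 20.8% of the 10169 genes at member level. At an unadjusted p under 0.05, 4 were higher and 3 lower, and DESeq2 and limma-voom also called 0 lower. Here and below, counts at an unadjusted p have no share of all tested genes beside them. They cannot be read as a result about members.

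Gpi1 measured 385, 409, 398, 412 and 421 CPM at 2 months and 424, 438, 428, 426 and 431 at 9 months. The libraries of these ages did not overlap (log2 fold change 0.085 ± 0.024 (SE), adjusted p = 0.0175), though the call was lost without replicate 1 of 2 months (adjusted p = 0.0642). Gapdh measured 41.9, 44.5, 45.3, 43.7 and 45.4 CPM at 2 months and 52.6, 55.4, 49.9, 45.1 and 44.3 at 9 months. Replicates 1 to 3 of 9 months were above all 2 month libraries and the other two overlapped them (log2 fold change 0.16 ± 0.051 (SE), adjusted p = 0.0271). Without replicate 2 of 9 months its adjusted p was 0.111, and leaving out any of 4 other libraries (replicates 1 and 4 of 2 months, 1 and 3 of 9 months) gave 0.0538 to 0.0819. Pfkp measured 336, 323.2, 339, 318 and 325.3 CPM at 2 months and 331, 349, 350.1, 352 and 342 at 9 months. Its ranges overlapped (log2 fold change 0.072 ± 0.024 (SE), adjusted p = 0.0394), and the call was lost without any of replicates 2, 4 and 5 of 2 months or 2, 3 and 4 of 9 months (adjusted p 0.0803 to 0.114). Scaling by library totals alone left none of the 3 and instead called 0 higher and 4 lower (Pdha1, Dlat, Dld and Ogdh). A change of scaling shifts all genes, and the share of all tested genes called under it is not given here. GC correction gave 4 higher and 1 lower, adding Aldoa and Dlat, beside 15.7% of all tested genes (8.26% higher, 7.47% lower).

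At 15 months the calls went mainly down. Ldha was lower by 9%, and Ogdh (E1 of the oxoglutarate dehydrogenase complex), Eno2, Idh3b (a subunit of the NAD-dependent isocitrate dehydrogenase), Eno1, Tpi1 and Pfkl were lower by 5% to 7%, while Pfkp was higher by 5%. That is 1 member higher and 7 lower, beside 12.6% of all tested genes called in either direction (5.31% higher, 7.3% lower). The 8 called were 25.8% of members, against 18.3% of the genes at member level. The 7 lower members were 5 glycolytic or lactate dehydrogenase genes with 51.5% to 57.4% GC, plus Ogdh (52.5%) and Idh3b (47.2%). For Idh3b the longest protein-coding transcript has 52.1%.

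Ldha measured 186, 182, 188, 181 and 183 CPM at 2 months and 163, 166, 169, 167 and 172 at 15 months. Every 15 month library was below every 2 month library (log2 fold change -0.13 ± 0.028 (SE), adjusted p = 0.00172). Ogdh, at 385, 395, 398, 399.5 and 390.3 CPM at 2 months and 359, 369, 359, 375 and 371 at 15 months, was likewise apart (-0.10 ± 0.023 (SE), adjusted p = 0.00312). Eno2 stood at 1018, 1003, 1008, 988 and 996 CPM at 2 months and 938, 967, 934, 963 and 960.0 at 15 months (-0.074 ± 0.021 (SE), adjusted p = 0.0203). Idh3b gave 229, 231, 229, 224 and 227 CPM at 2 months and 220.3, 219.04, 213, 216 and 211 at 15 months (-0.080 ± 0.023 (SE), adjusted p = 0.022). In these 4 genes no library of 15 months reached the lowest of 2 months. Here and below, genes described by library were picked by smallest p, so separation is partly built in. The share of all tested genes without overlap was not computed. Pfkp measured 344, 351, 338, 344 and 349 CPM at 15 months, overlapping the 2 month libraries (0.071 ± 0.024 (SE), adjusted p = 0.0461). The Pfkp call was lost without any of replicates 2, 4 and 5 of 2 months or 1, 2, 4 and 5 of 15 months (adjusted p 0.0625 to 0.13). That of Eno2 was lost without replicates 1 or 3 of 15 months (0.0549 and 0.0585), and that of Idh3b without replicates 3 or 5 of 15 months or 2 of 2 months (0.0539 to 0.0575).

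The 15 month libraries were those with the lowest ratio of GC-rich to GC-poor genes. With GC correction 3 members remained, all lower, beside 8.11% of all tested genes (4.42% higher, 3.7% lower): Idh3b (-0.097, adjusted p = 0.00415), Ldha (-0.12, adjusted p = 0.00447) and Ogdh (-0.072, adjusted p = 0.0294). Eno2 after correction was -0.020 (adjusted p = 0.626). DESeq2 size factors within edgeR (RLE) gave 1 higher and 2 lower. Liver transcripts summed to 16.4 to 122 CPM at 15 months, against 6.23 to 171 CPM at 2 months, where 4 of 5 libraries were at 14.3 CPM or below. With this sum as a covariate 0 members were higher and 6 lower (1 and 11 at an unadjusted p under 0.05), and the calls of Idh3b (adjusted p = 0.0712) and Pfkp (0.16) were lost. Shares of all tested genes beside the RLE and covariate counts are not given here, so these counts cannot be read as particular to members. Of 10 oligodendrocyte markers 1 was higher and 5 were lower at 15 months, and their part in the result was not tested.

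At 24 months compared with 2 months the genes of early glycolysis and of the pyruvate dehydrogenase complex lay on opposite sides of 0. All 7 genes from Hk1 to Tpi1 had positive estimates, of which Aldoa, Gpi1 and Pfkp passed the test. All 4 of Pdha1, Pdhb, Dlat and Dld had negative estimates, of which Pdhb and Dlat passed. These 2 groups also differ in GC content, at 48.0% to 57.1% and 40.6% to 47.2%. Across the 31 members the 24 month difference rose with GC content (Pearson's r = 0.34, Spearman's rho = 0.40). The GC measure of the libraries was -0.019 to 0.080 at 2 months and 0.054 to 0.144 at 24 months. After GC correction the split was 6 of 7 and 3 of 4, with Hk1 and Dld across 0, and the call of Pdhb was lost (adjusted p = 0.0623). In all, 7 members were higher and 6 lower, beside 22.3% of all tested genes (10.8% higher, 11.5% lower). That is 41.9% of members, against 29% of the genes at member level. The higher members were Aldoa, Pgam1, Gpi1, Suclg2, Pkm, Mdh2 and Pfkp. The lower ones were Idh3b, Dlat (E2 of the pyruvate dehydrogenase complex), Ldha, Pgk1, Pdhb (E1 beta of the same complex) and Ogdh. The median estimate was 0.029 over members, and their range was -0.15 to 0.22.

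Aldoa, which cleaves fructose 1,6-bisphosphate, measured 1061, 1037, 1085, 1048 and 1068 CPM at 2 months and 1135, 1100.3, 1185, 1158 and 1129 at 24 months. All 24 month libraries were higher (log2 fold change 0.11 ± 0.025 (SE), adjusted p = 0.00233). Pgam1, phosphoglycerate mutase, gave 12.02, 10.9, 14.4, 12.5 and 12.8 CPM at 2 months and 14.3, 13.8, 16.02, 14.8 and 14.5 at 24 months. Replicate 3 of 2 months lay within the 24 month range (0.22 ± 0.061 (SE), adjusted p = 0.00843). Gpi1 measured 433, 426, 429, 431 and 421 CPM at 24 months, all above the 2 month libraries (0.080 ± 0.024 (SE), adjusted p = 0.0169). Without replicate 1 of 2 months its adjusted p was 0.0617. Suclg2 gave 9.72, 8.37, 8.22, 9.39 and 9.31 CPM at 2 months and 10.52, 11.3, 9.76, 9.84 and 10.8 at 24 months. The ages were apart by a small margin (0.22 ± 0.071 (SE), adjusted p = 0.0257), and the call was lost without any of replicates 2 and 3 of 2 months and 2 and 5 of 24 months (adjusted p 0.0551 to 0.0893).

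Idh3b measured 208, 215, 215, 213 and 213 CPM at 24 months, all below the 2 month libraries (-0.10 ± 0.023 (SE), adjusted p = 0.00211). Dlat gave 124, 121, 116, 120.0 and 122 CPM at 2 months and 114, 103, 113, 111 and 114 at 24 months, again apart (-0.12 ± 0.030 (SE), adjusted p = 0.00532). Ldha at 24 months was 167, 167, 181, 178 and 169 CPM. Its replicate 3 lay within the range of 2 months and the other 4 below it (-0.094 ± 0.028 (SE), adjusted p = 0.0151). Without replicate 1 of 24 months its adjusted p was 0.0503. Pgk1, the first ATP-forming enzyme of glycolysis, gave 20.3, 18.7, 19.2, 19.6 and 19.5 CPM at 2 months and 16.9, 18.04, 18.5, 17.0 and 17.4 at 24 months. The ages did not overlap (-0.15 ± 0.046 (SE), adjusted p = 0.0222), and the adjusted p was 0.056 without replicate 1 of 2 months and 0.0599 without replicate 1 of 24 months.

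GC correction gave 7 higher and 5 lower, beside 22.3% of all tested genes (11% higher, 11.3% lower). RLE factors gave 5 higher and 7 lower, and library totals alone 9 higher and 4 lower. The summed level of 8 liver-expressed genes was 54.7 to 229 CPM at 24 months and 6.23 to 171 CPM at 2 months, with 4 of 5 libraries of 2 months at 14.3 CPM or below. With this sum as a covariate 3 members were called, all lower (Ldha, Idh3b and Ogdh). Since the sum moves with age, the 2 cannot be told apart in these libraries. The share of all tested genes called with RLE factors, library totals or this covariate is not given here. These counts therefore cannot be read as particular to members. Summed choroid plexus markers were also apart, at 481 to 544 CPM at 2 months and 605 to 719.9 at 24 months, and 7 of 10 microglial markers were higher and 1 lower, and their part in the result was not tested.

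**Figure D2:**
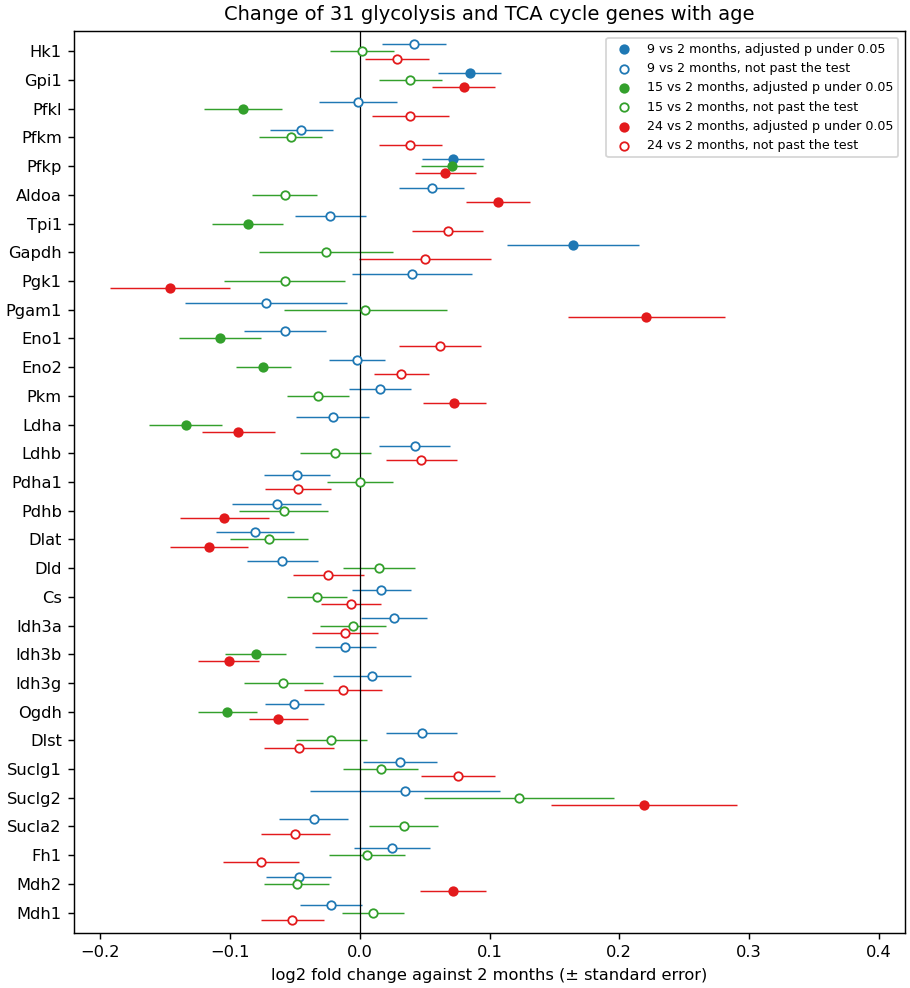
Log2 fold change of each of the 31 members at 9, 15 and 24 months against 2 months, with the standard error as bars and filled points for adjusted p under 0.05. All estimates lie between -0.15 and 0.22, the genes from Hk1 to Tpi1 are to the right of 0 at 24 months and those from Pdha1 to Dld to the left.

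Between 9 and 24 months, 6 members rose and 5 fell, beside 30.3% of all tested genes (15.2% higher, 15.1% lower). That is 35.5% of members, against 38.2% of the genes at member level. In order of p, those that rose were Pgam1, Mdh2 (mitochondrial malate dehydrogenase), Eno1 (the enolase of most cells), Pfkm, Tpi1 and Suclg2 (log2 fold change 0.18). Those that fell were Pgk1, Idh3b, Fh1 (fumarase), Dlst (E2 of the oxoglutarate dehydrogenase complex) and Ldha.

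Pgam1 measured 11.6, 12.4, 12.3, 11.9 and 11.9 CPM at 9 months, below every 24 month library (log2 fold change 0.29 ± 0.060 (SE), adjusted p = 0.000509). This call was kept under all 18 alternatives run for it. Mdh2 gave 239, 233, 242, 238 and 239 CPM at 9 months and 255.9, 248, 265, 262 and 261 at 24 months, with no overlap (0.12 ± 0.025 (SE), adjusted p = 0.000657). Eno1 gave 128, 126, 134, 134 and 135 CPM at 9 months and 138, 139, 152, 146 and 138 at 24 months, also apart (0.12 ± 0.031 (SE), adjusted p = 0.00455). Pfkm measured 388, 386, 415, 407 and 396 CPM at 9 months and 427, 419, 423, 419 and 423 at 24 months (0.084 ± 0.024 (SE), adjusted p = 0.00897). The 24 month libraries of Pfkm were close together and all above those of 9 months.

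Pgk1 at 9 months was 19.7, 19.4, 19.8, 20.9 and 20.3 CPM, above every 24 month library (-0.19 ± 0.046 (SE), adjusted p = 0.00265). Idh3b at 9 months was 232, 223, 219.6, 226 and 232 CPM, which also lay wholly above 24 months (-0.090 ± 0.023 (SE), adjusted p = 0.00416). Fh1 gave 82.1, 82.2, 81.6, 78.7 and 84.8 CPM at 9 months and 76.3, 74.1, 77.9, 76.0 and 77.3 at 24 months, without overlap (-0.10 ± 0.029 (SE), adjusted p = 0.00885). Dlst gave 167, 161, 166, 159 and 162 CPM at 9 months and 147, 151, 159, 155 and 151 at 24 months, with replicate 3 of 24 months inside the 9 month range (-0.094 ± 0.027 (SE), adjusted p = 0.00889). GC correction gave 6 higher and 6 lower, beside 30.2% of all tested genes (15.5% higher, 14.7% lower), and the call of Pfkm was lost (0.055, adjusted p = 0.062). Scaling by library totals, which put the median of all genes at 0.049, gave 11 higher and 1 lower. Summed liver transcripts were 5.93 to 36.9 CPM at 9 months, below every 24 month library, and with them as a covariate 3 members were called (Pgam1 and Mdh2 higher, Dlst lower). Neither the count by library totals nor that with the covariate has a share of all tested genes beside it here. Summed oligodendrocyte markers were also apart (5217 to 6272 CPM at 9 months, 6308 to 6783 at 24 months, 5 of 10 higher and 0 lower). So were choroid plexus markers (38.1 to 561 CPM at 9 months, 605 to 719.9 at 24 months), and the part of either in the result was not tested.

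As a straight line over the 22 months from 2 to 24 months, 2 members rose and 4 fell, beside 16.6% of all tested genes (8.16% higher, 8.41% lower). That is 19.4% of members, against 19.9% of the genes at member level. Pgam1 rose by 0.25 ± 0.067 (SE), adjusted p = 0.0125, and Suclg2 by 0.23 ± 0.069 (SE), adjusted p = 0.0218, both on the log2 scale over the whole span. Idh3b changed by -0.11 ± 0.026 (SE), adjusted p = 0.00442, with age means of 228 ± 2.77, 226 ± 5.37, 216 ± 3.98 and 213 ± 2.79 CPM (SD, n = 5). These means fell at each successive age. Pgk1 (-0.17 ± 0.048 (SE), adjusted p = 0.0173), Ldha (-0.11 ± 0.034 (SE), adjusted p = 0.0244) and Dlat (-0.10 ± 0.033 (SE), adjusted p = 0.0274) were the other members that fell.

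Idh3b kept its call without any single library. Suclg2 lost it without replicate 3 of 2 months or replicates 2 or 5 of 24 months (adjusted p 0.0522 to 0.0644). Ldha lost it without replicate 3 of 2 months or replicates 1 or 2 of 24 months (0.0503 to 0.0579), Pgk1 without replicate 1 of 24 months (0.055), and Dlat without replicates 1, 2 or 5 of 2 months or 2 of 24 months (0.0501 to 0.0889). GC correction gave 2 higher and 5 lower, beside 19% of all tested genes (9.73% higher, 9.3% lower). Library totals gave 4 higher and 2 lower. With the liver covariate the trend called 0 members, with 0 higher and 4 lower at an unadjusted p under 0.05, while DESeq2 and limma-voom without it called 8 and 6. Apart from GC correction, shares of all tested genes for these alternatives are not given here.

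A contrast of mid-life (the mean of 9 and 15 months) with both ends (the mean of 2 and 24 months) called some glycolytic transcripts lower. Of the 13 genes from Hk1 to Pkm, 8 had negative and 5 positive estimates. The test called 7 lower and 0 higher, namely Eno1, Tpi1, Pfkm, Eno2, Pgam1, Aldoa and Pfkl. Mdh2 and Ogdh were also lower, which makes 9 lower and 0 higher of 31, beside 22.3% of all tested genes (11% higher, 11.3% lower). That is 29.0% of members, against 32.1% of the genes at member level (17.5% higher, 14.5% lower). At an unadjusted p under 0.05, 2 members (Fh1 and Pfkp) were higher, and DESeq2 called 2 higher while limma-voom called 0. None of the 4 pyruvate dehydrogenase genes passed the test (0 at an unadjusted p under 0.05), with estimates from -0.017 (Dlat) to -0.00035 (Pdha1).

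Eno1 had the smallest p among members (log2 difference -0.11 ± 0.022 (SE), adjusted p = 0.000478). Its libraries measured 138, 135, 138, 132 and 141 CPM at 2 months and 123, 131, 125, 132 and 124 at 15 months, with the 9 and 24 month values as above. Tpi1, triose phosphate isomerase, gave 368, 379, 386, 390.1 and 386 CPM at 2 months, 349.5, 378, 376, 387 and 388 at 9 months, 351, 361, 353, 364 and 369 at 15 months and 397, 386, 412, 404 and 401 at 24 months. The 15 month libraries were lowest and those of 24 months highest in mean, and 2 and 9 months overlapped (-0.088 ± 0.019 (SE), adjusted p = 0.00129). Mdh2 measured 239.9, 243, 247, 244 and 255.002 CPM at 2 months and 229, 235, 239, 242 and 244 at 15 months (-0.084 ± 0.018 (SE), adjusted p = 0.00101). Pfkm measured 413, 410.0, 416, 405 and 411 CPM at 2 months and 389, 396, 383, 401 and 411 at 15 months (-0.069 ± 0.017 (SE), adjusted p = 0.0042). The means of both genes were below that of 2 months at 9 and 15 months and above it at 24 months.

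GC correction called 1 member higher (Hk1) and 4 lower (Mdh2, Dld, Tpi1 and Pgam1), beside 17.6% of all tested genes (9.56% higher, 8.08% lower), so that 2 of the 7 lower glycolytic genes remained. Across the 31 members the mid-life difference went down with GC content before correction (Pearson's r = -0.50, Spearman's rho = -0.50, a description over genes of the same libraries). By scaling, RLE factors gave 2 higher and 5 lower. With 9 months alone against the ends, a setting chosen after the GC difference of 15 months had been seen, 3 were higher and 4 lower and the call of Tpi1 was lost, and with 15 months alone 0 were higher and 10 lower. For RLE factors and for either age alone, the share of all tested genes is not given here. Of the 10 oligodendrocyte markers 8 were also lower in mid-life, with median sums of 6313, 5494, 5555 and 6352 CPM from 2 to 24 months, and their part in the result was not tested.

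At 30 months compared with 2 months the deposited counts gave the largest differences of the series for members. Dld, the E3 subunit shared by the pyruvate, oxoglutarate and branched-chain dehydrogenases, and Sucla2 were lower by 58% and 57%. All 4 pyruvate dehydrogenase genes were lower, and 9 of the 13 glycolytic genes were higher. In all 14 members were higher and 10 lower, beside 58% of all tested genes (28.5% higher, 29.5% lower), a fit in which all 25 libraries entered. That is 77.4% of members, against 71.8% of the genes at member level. Across the 31 members this difference rose with GC content (Pearson's r = 0.74, Spearman's rho = 0.73), as a description over genes that share the same libraries.

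Dld measured 139, 135, 130.4, 137 and 136 CPM at 2 months and 115, 52.0, 40.9, 45.7 and 31.7 at 30 months (log2 fold change -1.25 ± 0.19 (SE), adjusted p = 1.89e-05). Replicate 1 of 30 months was below the younger range of 127 to 140.4 CPM, and the other 4 libraries were far below it. Sucla2 gave 178, 167, 173, 162 and 168 CPM at 2 months and 149, 60.3, 54.6, 51.3 and 45.8 at 30 months (-1.23 ± 0.20 (SE), adjusted p = 2.29e-05), with the same replicate standing apart from the 4 others. Idh3b measured 218.5, 196, 184, 187 and 180.3 CPM at 30 months (-0.24 ± 0.041 (SE), adjusted p = 4.13e-05). Pdha1, the E1 alpha subunit that pyruvate dehydrogenase kinases phosphorylate, gave 207, 214, 215, 211 and 217.5 CPM at 2 months and 201, 163, 169, 157 and 133 at 30 months (-0.37 ± 0.064 (SE), adjusted p = 4.36e-05). In these 4 genes no library of 30 months reached the 2 month range, and replicate 1 was the nearest to it. They were picked by smallest p, and the share of all tested genes without overlap was not computed.

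Gapdh was 52.5, 57.7, 66.8, 61.7 and 64.9 CPM at 30 months, all above the 2 month libraries (0.46 ± 0.065 (SE), adjusted p = 7.49e-06). Aldoa was 1116, 1325, 1483, 1413 and 1841 CPM at 30 months, with replicate 1 within the 24 month range and the 4 others above it (0.44 ± 0.074 (SE), adjusted p = 4.16e-05). Hk1, the main hexokinase of brain, gave 419.6, 426, 436, 430.1 and 444 CPM at 2 months and 453, 495, 575, 514 and 598 at 30 months (0.29 ± 0.051 (SE), adjusted p = 6.21e-05). Gpi1 was 432, 468, 479.6, 481 and 569 CPM at 30 months (0.26 ± 0.048 (SE), adjusted p = 8.3e-05). In all 4 genes the 30 month libraries exceeded those of 2 months, and replicate 1 was again the one closest to them. This set too was picked by smallest p, without a share of non-overlapping genes over all tested genes.

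**Figure D3:**
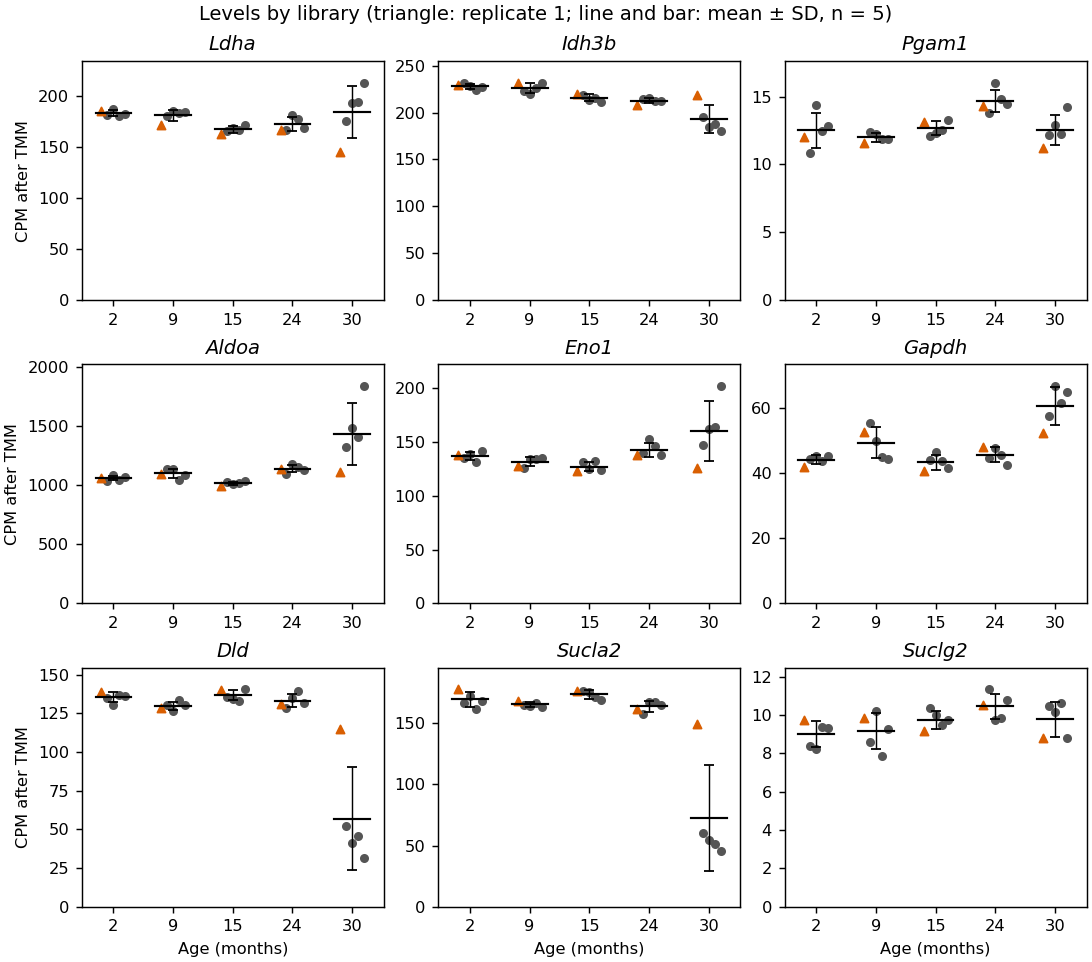
Level of 9 members in each library (CPM after TMM scaling, axes from 0) at 2, 9, 15, 24 and 30 months; triangles mark replicate 1, lines and bars the mean ± SD of 5 libraries. Dld and Sucla2 are steady from 2 to 24 months and drop in 4 of 5 libraries of 30 months, where replicate 1 stays at 115 and 149 CPM.

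After GC correction 8 members were higher and 7 lower, beside 45.5% of all tested genes (24.3% higher, 21.3% lower), and 13 of the 24 calls remained in the same direction. The 15 called were 48.4% of members, against 56.9% of the genes at member level. Dld (-0.62 ± 0.077 (SE), adjusted p = 1.14e-06), Sucla2 (-0.82 ± 0.12 (SE), adjusted p = 1.39e-05) and Fh1 (-0.33 ± 0.061 (SE), adjusted p = 9.08e-05) stayed lower. Corrected levels of Dld at 30 months were 120.1, 85.9, 76.7, 82.3 and 74.6 CPM, and those of Sucla2 were 154, 82.8, 81.9, 75.6 and 84.5 CPM. Replicate 1 thus remained the highest of the 5 for both. Gapdh (0.33 ± 0.055 (SE), adjusted p = 3.11e-05) and Aldoa (0.17 ± 0.033 (SE), adjusted p = 0.000167) stayed higher, with corrected Gapdh levels of 52.4, 53.2, 60.2, 56.0 and 55.2 CPM.

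The correction raised the estimates of Suclg1 (succinyl-CoA ligase alpha subunit) from 0.17 to 0.50, of Suclg2 from 0.12 to 0.51 and of Cs from 0.20 to 0.30. All 3 then passed the test, which Suclg2 had not before. It took Hk1 to 0.048 (adjusted p = 0.227), Pkm to 0.003 (0.934) and Mdh1 to -0.051 (0.268), none of which passed. The relation with GC content over the 31 members fell to r = 0.23 (rho = 0.12). The correction took GC from the longest transcript of any type. For Suclg1 this was 45.3%, against 50.2% in its longest protein-coding transcript. The same values were 48.2% and 50.4% for Cs, 52.6% and 56.6% for Gapdh, and 44.4% in both for Suclg2. Estimates corrected by the protein-coding values were not computed.

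With replicate 1 as the only library of 30 months, whose spread is then assumed to be that of the younger ages, 4 members were lower and 0 higher, beside 7.26% of all tested genes (4.19% higher, 3.08% lower) in edgeR. They were Ldha (-0.34 ± 0.050 (SE), adjusted p = 2.6e-05), Dld (-0.24 ± 0.048 (SE), adjusted p = 0.00184), Sucla2 (-0.18 ± 0.047 (SE), adjusted p = 0.0145) and Tpi1 (-0.17 ± 0.048 (SE), adjusted p = 0.0261). Dld and Sucla2 were thus lower in this library as well, by 15% and 12%. At an unadjusted p under 0.05, 2 members were higher and 8 lower, and other tools were not run on this setting. Ldha at 30 months measured 145, 176, 193, 194 and 213 CPM, with replicate 1 the lowest of all 25 libraries and 3 others above every 2 month library, so that its difference over all 5 was 0.003 (adjusted p = 0.974). With GC correction added, replicate 1 gave Ldha, Dld, Tpi1 and Eno2 as lower and 0 as higher, beside 7.29% of all tested genes (4.58% higher, 2.71% lower), and Sucla2 was at an adjusted p of 0.053.

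**Figure D4:**
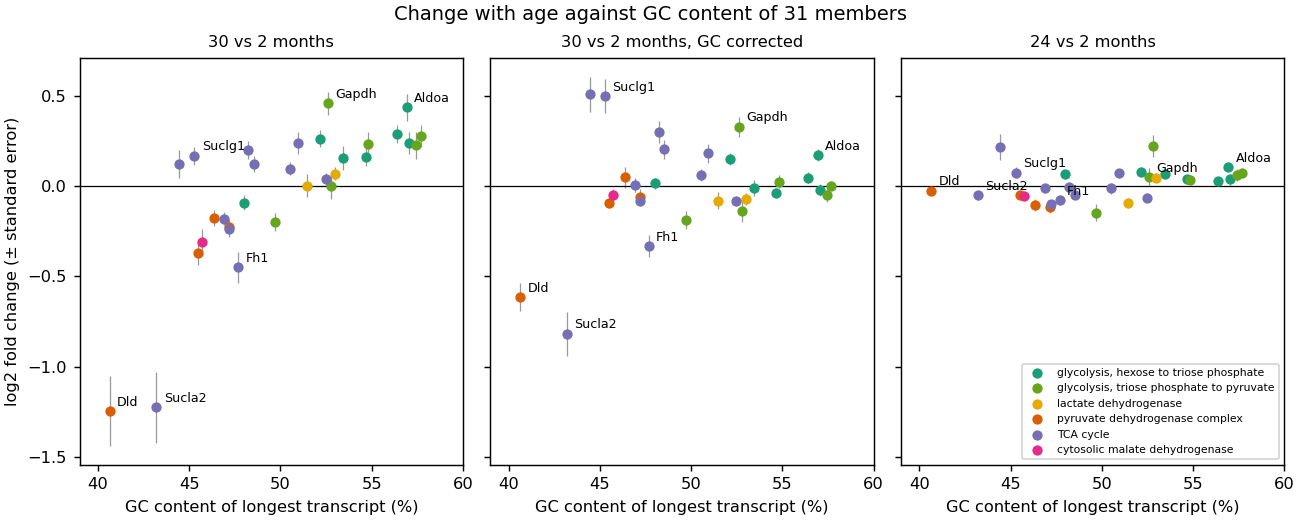
Log2 fold change (± standard error) of the 31 members against the GC content of the longest transcript for 30 against 2 months as deposited, the same after GC correction, and 24 against 2 months, coloured by role. Dld and Sucla2, at 40.6% and 43.2% GC, are lowest in the first panel at -1.25 and -1.23 and remain lowest after correction at -0.62 and -0.82.

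The other genes of these pathways, 63 listed by role and 60 of them tested, include isozymes, transporters, regulators and the remaining TCA and pentose phosphate enzymes. At 9 months 6 were higher and 5 lower (18.3%, beside 14.5% of all tested genes and 20.8% at member level). The higher ones included Pdk2 (0.19) and Pdk1 (0.14), kinases that switch off pyruvate dehydrogenase, the phosphatase Pdp1 (0.33), which switches it on, and Sdha (0.098). Among the lower ones were Hkdc1 (-0.60), Pfkfb2 (-0.25), Aco1 (-0.20) and Slc25a11 (-0.11). At 15 months 1 was higher, Pdk1 (0.15), and 8 lower, among them Gpd1 (-0.22), Sdhc (-0.14) and Hkdc1 (-0.45), together 15% beside 12.6% of all tested genes and 18.3% at member level. All fold changes in this paragraph are on the log2 scale and passed the test.

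At 24 months 12 pathway genes were higher and 8 lower than at 2 months, which is 33.3% beside 22.3% of all tested genes and 29% at member level. Tkt, transketolase of the pentose phosphate pathway, measured 128, 132, 149, 142 and 140.0 CPM at 2 months and 164, 159.6, 167, 161 and 160.4 at 24 months (log2 fold change 0.23 ± 0.035 (SE), adjusted p = 1.45e-05). G6pdx, which commits glucose 6-phosphate to that pathway, gave 38.4, 38.2, 38.3, 38.7 and 37.6 CPM at 2 months and 48.3, 42.7, 44.4, 44.5 and 44.6 at 24 months (0.23 ± 0.042 (SE), adjusted p = 0.000166). In both genes every 24 month library was above every 2 month library, and 2 of the 7 pentose phosphate genes passed the test in all (28.6%, near those shares). The lactate transporter Slc16a1 gave 35.0, 36.8, 39.5, 40.6 and 42.5 CPM at 2 months and 45.2, 45.3, 49.9, 47.5 and 45.3 at 24 months (0.26 ± 0.046 (SE), adjusted p = 0.000131). Slc16a7, the lactate and pyruvate transporter known from neurons, went the other way, from 22.4, 22.4, 22.5, 22.4 and 22.2 CPM to 16.8, 19.2, 15.8, 16.9 and 19.0 (-0.35 ± 0.055 (SE), adjusted p = 2.42e-05). These 2 transporters were without overlap between the ages. Pdk2 was higher (0.17), and Gpd2 (-0.15), Aco1 (-0.18) and Hkdc1 (-0.39) were lower.

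From 9 to 24 months 20 pathway genes were called (33.3%, beside 30.3% of all tested genes and 38.2% at member level), of which 13 were higher, among them Slc16a1 (0.28), Tkt (0.19), Gpd1 (0.19) and Sdhb (0.13), and 7 lower, among them Gpd2 (-0.16), the neuronal glucose transporter Slc2a3 (-0.19) and Pdp1 (-0.45). In mid-life against the ends 10 were higher and 16 lower (43.3%, beside 22.3% and 32.1%), and 6 and 11 after GC correction (28.3%, beside 17.6% and 25.3%). Higher were Pdp1 (0.30), Slc2a3 (0.11) and Pfkfb3 (0.23) among others, and lower Gpd1 (-0.21), Taldo1 (-0.14), Hkdc1 (-0.33) and Sdhb (-0.092). Along the straight line from 2 to 24 months 6 were higher, among them Slc16a1 (0.28) and G6pdx (0.23), and 5 lower, among them Slc16a7 (-0.33) and Gpd2 (-0.16), together 18.3% beside 16.6% and 19.9%. At 30 months 25 were higher and 16 lower before GC correction (68.3%, beside 58% and 71.8%), and 22 and 5 after it (45%, beside 45.5% and 56.9%). G6pdx (0.45 before, 0.33 after), Tkt (0.43, 0.25), Pdk2 (0.61, 0.34) and Aldoc (0.50, 0.40) were higher in both. Replicate 1 of 30 months taken alone also called G6pdx (0.34), Tkt (0.19) and Pdk2 (0.23) as higher.

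Within ages, members varied together only loosely. Over the 20 younger libraries, each taken relative to its age mean, the median correlation was r = 0.28 over 78 pairs of glycolytic genes, 0.12 over 105 pairs of mitochondrial genes and 0.090 over 195 pairs between them. The closest pairs were Dlat with Idh3a (r = 0.78) and Aldoa with Ldhb (r = 0.75). The most negative were Gpi1 with Sucla2 (r = -0.60) and Gapdh with Mdh1 (r = -0.59). These are descriptions over libraries that share depth and base composition, and Aldoa and Pkm themselves correlated with the GC measure of the library (r = 0.67 and 0.68).

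Promoters of Ldha and Pgk1, which fell along the trend, are shown because both are textbook targets of the hypoxia-inducible factor, whose response element has the core ACGTG or GCGTG. Each promoter spans 250 bases before to 50 after the start (RefSeq, GRCm38.p6), with matches to either core on either strand in capitals.
Ldha, chr7:46845554-46845853, plus strand: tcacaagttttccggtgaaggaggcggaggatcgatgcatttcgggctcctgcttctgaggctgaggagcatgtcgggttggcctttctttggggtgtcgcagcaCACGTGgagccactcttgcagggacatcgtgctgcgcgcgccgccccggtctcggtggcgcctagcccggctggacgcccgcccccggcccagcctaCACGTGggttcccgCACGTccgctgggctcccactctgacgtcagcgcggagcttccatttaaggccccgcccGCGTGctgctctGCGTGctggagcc
Pgk1, chrX:106186850-106187149, plus strand: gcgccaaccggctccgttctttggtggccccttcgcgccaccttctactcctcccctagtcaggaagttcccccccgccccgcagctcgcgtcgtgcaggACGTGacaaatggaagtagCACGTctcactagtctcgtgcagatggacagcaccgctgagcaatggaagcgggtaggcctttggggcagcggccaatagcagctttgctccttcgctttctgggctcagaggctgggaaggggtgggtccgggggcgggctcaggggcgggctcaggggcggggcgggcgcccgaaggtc
A RefSeq promoter was matched for 30 of the 31 members. ACGTG was present in a promoter of 12 of the 30 (40%), beside 21.8% of 26994 genes, and GCGTG in 16 (53.3%), beside 35.1%. A gene counted if any of its promoters matched. Some members have several, such as Ogdh with 6, Pfkm with 4 and Ldha with 2. In the Ldha promoter not shown, GCGTG was present and ACGTG was absent on either strand. The 26994 genes have 32817 promoters in all. These genes were not matched to the members in number of promoters, expression or promoter GC content, so the shares are a description only. Matches of the cores can overlap each other. Of the other motifs searched, GGGCGG was in 20 (66.7%), beside 38.2%, and CCAAT in 14 (46.7%), beside 41.0%. TATAAA was in 1 (3.3%, Eno2), beside 15.7%, the NRF1 palindrome in 1 (3.3%, Pgam1), beside 1.07%, and TCAAGGTCA (estrogen-related receptors) in 0, beside 0.47%. Members with ACGTG included Aldoa, Gapdh, Hk1, Ldha, Pfkm, Pgam1, Pgk1 and Pkm of glycolysis and Idh3g, Mdh1, Ogdh and Pdhb of the mitochondrial and malate genes. They hold genes that rose (Aldoa, Pgam1, Pkm) and that fell (Ldha, Pgk1, Ogdh, Pdhb) between 2 and 24 months.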

How the data were processed

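Total RNA libraries from 25 mouse brain hemispheres (5 at each of 5 ages) were measured by RNA sequencing. Per the submitters' processing notes, the authors used CASAVA 1.7, STAR 2.4.1d and featureCounts 1.4.6-p4 with GRCm38, and deposited raw counts per Ensembl gene. The annotation, strand and multiple-mapping settings are not given in the sources used here. RPKM values deposited by the authors were not used, because they do not follow the totals of their own libraries. The count columns were checked for duplicate libraries, and none was found.

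Counts were tested with edgeR 4.0.16 (R 4.3.3), by robust quasi-likelihood fits after filterByExpr on all 25 libraries and TMM scaling, with Benjamini-Hochberg adjustment over 17799 genes at 0.05. Fits of 2 to 24 months used 20 libraries, since the spread at 30 months differed, and 30 against 2 months used all 25. Standard errors are the fold change over the square root of F. The test was checked on simulated counts. GC correction used, per library, a lowess curve (span 0.3) of the log2 ratio to the younger mean (pseudocount 0.5) on GC content of the longest transcript, over protein-coding genes of at least 2 CPM. Symbols, lengths and GC come from GENCODE M21, with lengths over all annotated exons and GC of the longest transcript of any type. Alternatives were RLE factors, library totals, no filter, DESeq2 1.42.0, limma-voom (limma 3.58.1), GC correction, a covariate of liver transcripts, all 25 libraries, replicate 1 of 30 months only, and leaving out each library.

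Members and lists were chosen with earlier results of these data known. Members with every library value are, per comparison, at most the 4 smallest p in each direction past 0.05, and pathway genes likewise, of which some are not reported here. Replicate numbers follow sample order.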

Additional observations from a re-analysis of the deposited data

Results flagged for a closer look

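In 6 of 155 groups of 5 libraries (31 members at 5 ages), the highest or lowest library lay far from the other 4 (gap to range above the critical value of Dixon's test), where chance gives about 1 group in 20. Of these, 2 were replicate 1 of 30 months, with 115 CPM for Dld beside 31.7 to 52.0 in the other 4 and 149 CPM for Sucla2 beside 45.8 to 60.3. This library also had a GC measure of 0.13 beside 1.09 to 2.00. The other 4 were Eno2 at 24 months (replicate 1, 1003 CPM beside 1029 to 1036), Ldhb at 15 months (replicate 2, 306 CPM beside 294 to 296), Pdha1 at 15 months (replicate 3, 203 CPM beside 214 to 217.8) and Idh3g at 15 months (replicate 2, 116 CPM beside 120.2 to 121).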

How the results depend on the processing

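With all 25 libraries in the fit, calls among members fell to 0 at 9 months (1 higher and 0 lower at an unadjusted p under 0.05), 0 at 15 months (0 and 2), 1 at 24 months (Pgam1), 2 from 9 to 24 months (Pgam1 and Pgk1), 1 in the trend (Pgam1) and 0 in mid-life (0 and 2). The shared spread at 30 months enters that fit. With the liver covariate, calls were 3 at 24 months, 3 from 9 to 24 months and 0 in the trend. GC correction gave 5 at 9 months, 3 at 15 months, 5 in mid-life and 15 at 30 months. Beside these stood 15.7%, 8.11%, 17.6% and 45.5% of all tested genes, in that order. RLE factors gave 3 at 15 months, and no filter gave 4 at 15 months and 8 at 24 months. Replicate 1 alone gave 4 at 30 months, with or without GC correction. Except where another value is given, a cause was not tested. Besides GC correction and replicate 1, shares of all tested genes under these settings or without 1 library are not given here. A change in these counts therefore cannot be read as particular to members. Leaving out 1 library gave 1 to 4 calls at 9 months, 3 to 8 at 15 months, 7 to 11 at 24 months, 9 to 11 from 9 to 24 months, 3 to 7 in the trend, 6 to 10 in mid-life and 22 to 27 at 30 months. Counts moved by over 1.5 times at 9 months without replicates 1 or 4 of 2 months or 2 or 3 of 9 months (1 each), at 24 months without replicate 2 of 2 months (8) or 1 of 24 months (7), and in the trend without replicate 2 of 24 months (3). At 15 months this held without replicates 1 or 3 of 15 months (3), 5 of 15 months or 2 or 5 of 2 months (4), or 2 of 15 months or 3 of 2 months (5). Over 42 results of named members, 267 of 352 alternatives and 477 of 520 fits without 1 library kept the call, and 0 reversed. No paired analysis was possible because the replicate numbers follow sample order and pair no animals. Depth limits Suclg2 most, whose lowest count in a library was 164.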
